A study of Homo sapiens with 24 samples.

Results

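Aminoacyl-tRNA synthetases are the enzymes that join each amino acid to its tRNAs, the step that sets the genetic code before the ribosome. Their nuclear genes were followed here in neuroblastoma cells exposed to GSK-J4. The set was a fixed list of 36 symbols, matched by Ensembl identifier: 20 genes of the cytosolic enzymes, and 16 genes, with names ending in 2, of enzymes that work in mitochondria. All 36 were found in each of the 4 tables used, which between them list 39772 genes. Most amino acids have a separate gene for each compartment, whereas GARS and KARS each serve both from 1 gene. In the cytosol 8 of the enzymes sit together in the multi-synthetase complex, a large particle held by scaffold proteins, and the others act free of it. When cells run short of amino acids or meet other stresses, the transcription factor ATF4 is known to raise many cytosolic synthetase genes through short C/EBP-ATF composite sites in their promoters.

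The study exposed 4 human neuroblastoma lines to GSK-J4, a cell-permeable inhibitor of the histone H3 lysine 27 demethylases KDM6A and KDM6B, and sequenced polyadenylated RNA. There were 8 groups with 3 libraries each, and every line had cultures given 1 µM GSK-J4 for 72 h and untreated cultures. LAN5 and IMR5, both MYCN-amplified, and SK-N-FI, without that amplification, are given as sensitive, and SK-N-BE(2), MYCN-amplified, as resistant. With 1 resistant line and 1 line without amplification, each of these properties cannot be told apart from the line itself. The labels do not say whether the replicates were grown apart, so a p-value covers the spread between libraries, and this may be technical only.

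The values come from the authors' deposited tables, 1 for each line, and comprise the mean normalized count over the libraries of both groups, the log2 fold change of GSK-J4 over untreated cells with its standard error (SE), and an adjusted p from a DESeq2 Wald test. The tables hold no values of single libraries, so levels are not given by group, and the depth of each library is unknown. A gene is said to have risen or fallen where the adjusted p was under 0.05. The tables do not state the sign of the contrast, which was read as GSK-J4 over untreated, and the table used for SK-N-FI was assigned to that line by elimination. In SK-N-BE(2) the authors' fold changes were pulled towards 0 much more strongly than in the other lines, so comparisons between lines use values from which this shrinkage was removed, called prior-removed. Summed over all genes, mean normalized counts came to between 15458900 and 19445400 in the 4 tables. Of the neuroblastoma markers, PHOX2A, HAND2, GATA2, GATA3, ISL1, DBH, CHGA and CHGB had means of 62.2 to 12262 in every line, STMN2 was at 1.35 in IMR5, and TH was read only in LAN5 and SK-N-BE(2). Markers of Schwann cells had means up to 180 and those of immune and endothelial cells up to 142. The fibroblast marker LUM had means of 31.0 to 715 in the sensitive lines and 19924 in SK-N-BE(2), and DCN 2.02 to 1600 in the sensitive lines and 11860 in SK-N-BE(2). Another, COL1A1, had 20.6 to 1104 in the sensitive lines and 552 in SK-N-BE(2), and COL1A2 was at or under 28.8 where it was listed. The part of these other cell types' genes in the results below was not tested. In bulk RNA, fewer cells with an mRNA and less of it per cell cannot be told apart.

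The 20 cytosolic genes tended upwards in the 3 sensitive lines and stayed near 0 in SK-N-BE(2). In LAN5, 12 of the 20 rose and 6 fell in the authors' deposited table, beside 22.5% and 19.2% of the 25753 genes tested. In IMR5, 14 rose and 2 fell in the authors' deposited table, beside 22.6% and 21.6% of all genes tested. In SK-N-FI, 9 rose and 4 fell in the authors' deposited table, beside 16.8% and 14.8%. Genes with many reads pass the test more often, so the shares among genes averaging at least 100 normalized counts are closer to these members, whose cytosolic means all exceeded that. Those shares were 28.2% higher and 38.9% lower in LAN5, 34.0% and 35.7% in IMR5 cells, and 25.0% and 24.1% in SK-N-FI. The median log2 fold change of the 20 genes in the authors' deposited tables was 0.42 in LAN5, 0.44 in IMR5 cells and 0.14 in SK-N-FI, where the medians of all genes tested were 0.093, 0.016 and 0.010. With a minimum absolute log2 fold change of 0.5 added, the cytosolic genes that rose numbered 8 in IMR5 and 5 in SK-N-FI. Split by the architecture of the catalytic domain, 7, 8 and 4 of 10 class I genes and 5, 6 and 5 of 10 class II genes rose in LAN5, IMR5 and SK-N-FI.

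**Figure D1:**
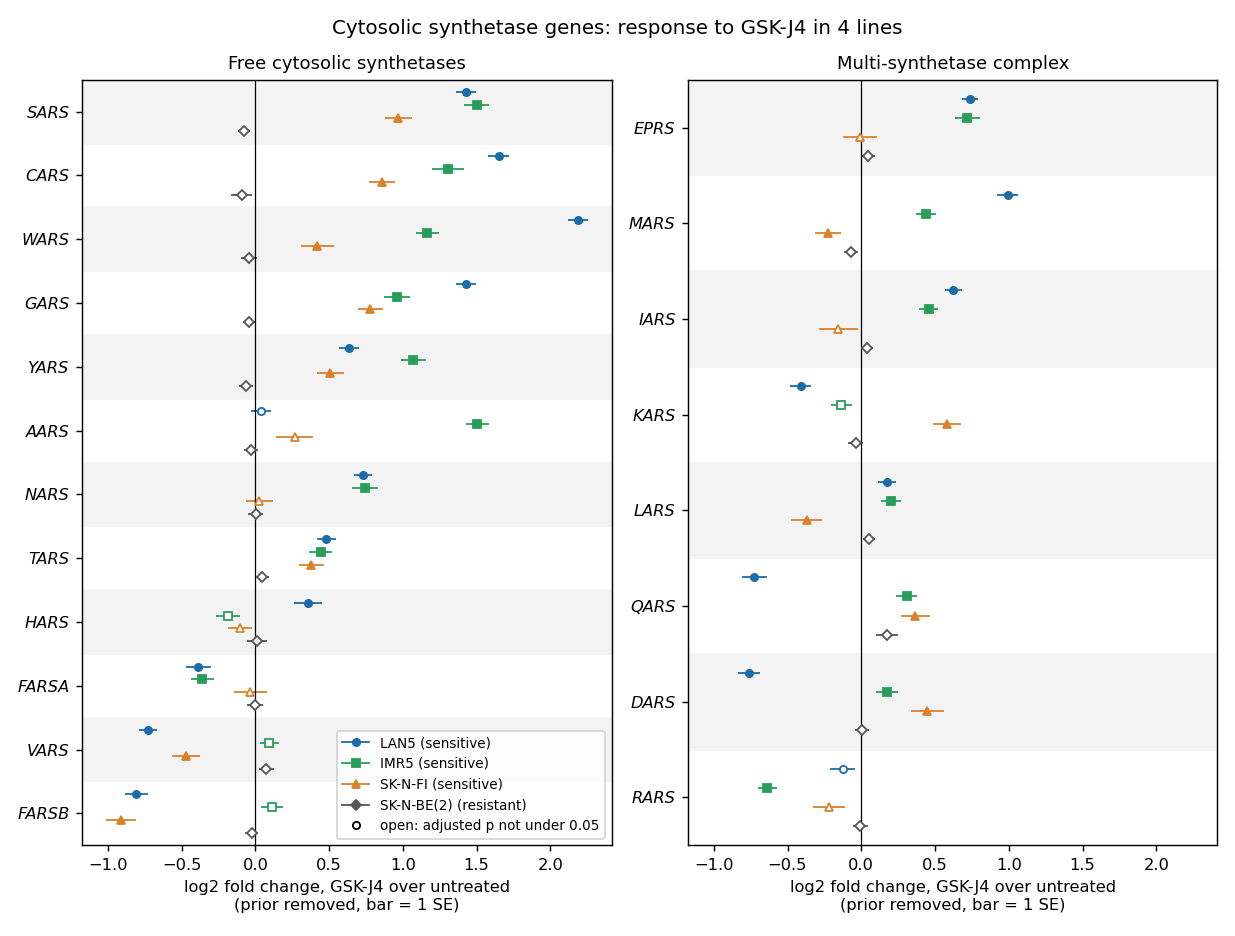
Prior-removed log2 fold change of GSK-J4 over untreated cells (x axis) for the 20 cytosolic synthetase genes (rows), free enzymes on the left and complex members on the right. Each symbol is 1 line, bars are 1 SE, and open symbols had an adjusted p of 0.05 or more. SARS, CARS, WARS, GARS, YARS and TARS lie right of 0 with filled symbols in all 3 sensitive lines, and all 20 SK-N-BE(2) symbols are open and near 0.

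The rise shared by the sensitive lines was seen in 6 free enzymes. WARS, the tryptophan enzyme (ENSG00000140105, chr14:100333788-100376805, minus strand), had a log2 fold change of 2.18 ± 0.067 (SE) in LAN5, 1.16 ± 0.077 in IMR5 cells, 0.41 ± 0.11 in SK-N-FI cells and -0.040 ± 0.049 in SK-N-BE(2) in the authors' deposited tables. This is a 4.52-fold rise in LAN5, the largest of any member in any line, and its adjusted p there was 3.19e-228. About 10.6% of its exon bases overlap genes on the other strand. CARS, the cysteine enzyme (ENSG00000110619, chr11:3000922-3057613, minus strand), stood at 1.64 ± 0.070 in LAN5, 1.29 ± 0.11 in IMR5 cells, 0.85 ± 0.086 in SK-N-FI cells and -0.080 ± 0.059 in SK-N-BE(2) in the authors' deposited tables. Its adjusted p was at most 5.86e-21 in the sensitive lines and 0.759 in SK-N-BE(2). SARS, which charges the serine tRNAs and also the selenocysteine tRNA (ENSG00000031698, chr1:109213918-109238169, plus strand), had 1.42 ± 0.067 in LAN5, 1.49 ± 0.084 in IMR5 cells, 0.96 ± 0.090 in SK-N-FI cells and -0.072 ± 0.038 in SK-N-BE(2) in the authors' deposited tables. It was the largest cytosolic change in SK-N-FI and, after AARS, the largest in IMR5.

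GARS, the glycine enzyme of both compartments (ENSG00000106105, chr7:30594681-30634033, plus strand), had a log2 fold change of 1.42 ± 0.071 in LAN5, 0.95 ± 0.084 in IMR5 cells, 0.77 ± 0.082 in SK-N-FI cells and -0.038 ± 0.040 in SK-N-BE(2) in the authors' deposited tables. YARS, the tyrosine enzyme (ENSG00000134684, chr1:32775237-32818153, minus strand), gave 0.63 ± 0.067 in LAN5, 1.06 ± 0.085 in IMR5 cells, 0.50 ± 0.090 in SK-N-FI cells and -0.056 ± 0.044 in SK-N-BE(2) in the authors' deposited tables. TARS, the threonine enzyme (ENSG00000113407, chr5:33440696-33469539, plus strand), gave 0.48 ± 0.064 in LAN5, 0.44 ± 0.077 in IMR5 cells, 0.38 ± 0.082 in SK-N-FI cells and 0.045 ± 0.040 in SK-N-BE(2) in the authors' deposited tables. TARS thus rose by similar amounts in the 3 sensitive lines, whereas WARS spanned a wide range. With a minimum absolute log2 fold change of 0.5 the shared rise was kept by 4 genes, without TARS and WARS. All 6 belong to the 12 free enzymes, and none of the 8 complex members rose in all 3 sensitive lines. Among all 18599 genes tested in those 3 tables, 5.01% rose in all 3, and 7.6% of those averaging at least 100 in each table.

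The remaining free enzymes differed from line to line. AARS, the alanine enzyme (ENSG00000090861, chr16:70252295-70289543, minus strand), rose in IMR5 cells with a log2 fold change of 1.50 ± 0.077, the largest cytosolic change of that line, against 0.036 ± 0.067 in LAN5, 0.26 ± 0.12 in SK-N-FI cells and -0.025 ± 0.044 in SK-N-BE(2), not called in those 3 of the authors' deposited tables. NARS, the asparagine enzyme, rose in LAN5 and IMR5 and had 0.027 ± 0.087 in SK-N-FI cells in the authors' deposited tables. FARSB, the beta subunit of the phenylalanine enzyme, had the lowest cytosolic value in LAN5 and in SK-N-FI, with -0.80 ± 0.078 and -0.90 ± 0.099, against 0.11 ± 0.072 in IMR5 and -0.022 ± 0.042 in SK-N-BE(2), the last pair not called in the authors' deposited tables. FARSA, the alpha subunit, fell in LAN5 and IMR5, and VARS, the valine enzyme, fell in LAN5 and SK-N-FI cells in the authors' deposited tables. The subunits FARSA and FARSB therefore shared a fall in LAN5 but were not both called in IMR5 or SK-N-FI.

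Several genes of the multi-synthetase complex were called in different directions between lines. All 5 cytosolic members that were called in opposite directions in different sensitive lines belong to the complex: DARS, KARS, LARS, MARS and QARS. At a threshold of 0.01 these were 3, DARS, KARS and QARS, with a minimum absolute log2 fold change of 0.5 there were 0, and at a threshold of 0.1 the free enzyme HARS joined them. DARS, the aspartate enzyme, had a log2 fold change of -0.76 ± 0.073 in LAN5, 0.17 ± 0.074 in IMR5 cells, 0.44 ± 0.11 in SK-N-FI cells and 0.0055 ± 0.044 in SK-N-BE(2) in the authors' deposited tables. QARS, the glutamine enzyme, followed the same pattern with -0.72 ± 0.084 in LAN5, 0.31 ± 0.072 in IMR5 cells, 0.36 ± 0.098 in SK-N-FI cells and 0.14 ± 0.061 in SK-N-BE(2) in the authors' deposited tables. KARS, the lysine enzyme of both compartments, had -0.41 ± 0.071 in LAN5, -0.13 ± 0.071 in IMR5 cells, where it was not called, 0.57 ± 0.091 in SK-N-FI cells and -0.036 ± 0.045 in SK-N-BE(2) in the authors' deposited tables. These 3 genes fell in LAN5 and rose in SK-N-FI. The rise of DARS in IMR5 had an adjusted p of 0.0445 and was not called when p-values were adjusted over every gene of that table.

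MARS and LARS went the other way. MARS, the methionine enzyme, rose in LAN5 and IMR5, with 0.99 ± 0.069 and 0.44 ± 0.069, and fell in SK-N-FI with -0.22 ± 0.085, beside -0.065 ± 0.043 in SK-N-BE(2), in the authors' deposited tables. On the other strand, ARHGAP9 overlaps 7.38% of its exon bases and DDIT3, a stress gene that rose in the 3 sensitive lines, 5.05%. LARS, the leucine enzyme and a leucine sensor for mTORC1, had 0.17 ± 0.060 in LAN5, 0.20 ± 0.070 in IMR5 cells, -0.36 ± 0.10 in SK-N-FI cells and 0.050 ± 0.037 in SK-N-BE(2) in the authors' deposited tables. Across genes tested in the 3 sensitive lines, 12.6% were called in opposite directions in at least 1 pair of lines, and 18.9% of those with a mean of at least 100. EPRS, which holds the glutamate and proline activities in 1 chain, and IARS, the isoleucine enzyme, rose in LAN5 and IMR5 and were not called in SK-N-FI cells in the authors' deposited tables. RARS, the arginine enzyme, had -0.63 ± 0.063 in IMR5 cells, the lowest cytosolic value of that line, and -0.12 ± 0.083 in LAN5, -0.22 ± 0.11 in SK-N-FI cells and -0.0076 ± 0.047 in SK-N-BE(2), not called in those 3 of the authors' deposited tables. By line, 4, 6 and 3 of the 8 complex genes rose in LAN5, IMR5 and SK-N-FI, and 3, 1 and 2 fell. Of the 12 free genes 8, 8 and 6 rose and 3, 1 and 2 fell. The shares given above for genes averaging at least 100 are the background of these counts. Several counts are near them, such as the complex genes that fell in LAN5 and in SK-N-FI. The difference between complex and free genes was not tested.

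The promoters of the members were searched for the letters of the C/EBP-ATF composite site, TGATGNAAN, on both strands, in RefSeq windows of build GRCh38.p14 that run from 250 bases before to 50 bases after each start. Windows were at hand for 30 of the 36 genes, and DARS, LARS, VARS, YARS, AARS2 and VARS2 had no entry. A match lay in 7 of 16 cytosolic genes, AARS, CARS, GARS, IARS, MARS, NARS and TARS, and in 1 of 14 mitochondrial genes, YARS2, where 4.45% of all 27305 genes with windows had one. The stretches around the 7 cytosolic matches are shown because these genes include 3 of the 6 that rose in every sensitive line. They read 5′ to 3′ on the gene's strand, with the match in capitals. The capitals read ATTGCATCA, ATTTCATCA or GTTGCATCA where the motif lies on the opposite strand.
TARS, chr5:33440930-33440994, plus strand: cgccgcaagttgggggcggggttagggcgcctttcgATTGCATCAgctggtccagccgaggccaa
GARS, chr7:30594808-30594888, plus strand: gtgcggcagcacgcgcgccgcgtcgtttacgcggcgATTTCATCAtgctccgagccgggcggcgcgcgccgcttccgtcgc
CARS, chr11:3057394-3057462, minus strand: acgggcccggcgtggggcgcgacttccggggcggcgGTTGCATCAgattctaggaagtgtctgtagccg
MARS, chr12:57488027-57488097, plus strand: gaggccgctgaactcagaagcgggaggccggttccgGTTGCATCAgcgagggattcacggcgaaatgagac
IARS, chr9:92293668-92293747, minus strand: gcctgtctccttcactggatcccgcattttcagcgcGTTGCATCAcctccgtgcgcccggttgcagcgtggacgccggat
AARS, chr16:70289650-70289730, minus strand: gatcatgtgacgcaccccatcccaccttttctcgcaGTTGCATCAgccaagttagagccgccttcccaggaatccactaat
NARS, chr18:57621807-57621858, minus strand: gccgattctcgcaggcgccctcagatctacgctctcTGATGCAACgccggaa

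Every one of these 7 genes rose in IMR5 cells, 6 rose in LAN5, and 3 rose and 1, MARS, fell in SK-N-FI cells in the authors' deposited tables. None was called in SK-N-BE(2). Among the 9 cytosolic genes with a window and no match, 4 rose in each sensitive line, and 4, 2 and 1 fell in LAN5, IMR5 and SK-N-FI cells in the authors' deposited tables. The median log2 fold change with and without a match was 0.73 and -0.12 in LAN5, 0.74 and 0.11 in IMR5 cells, and 0.26 and -0.0093 in SK-N-FI cells in the authors' deposited tables. SARS and WARS, which rose in all 3 sensitive lines, had no match in their windows, which says only that these letters are not there. The exact form TGATGCAAT was matched in TARS alone among the members, and in 0.293% of all genes. The E-box CACGTG, a short word that MYC-family proteins bind, was found in 1 of 16 cytosolic genes, IARS, and in 3 of 14 mitochondrial genes, CARS2, EARS2 and MARS2, beside 8.77% of all genes. These matches describe letters and are not evidence that a factor is bound.

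**Figure D2:**
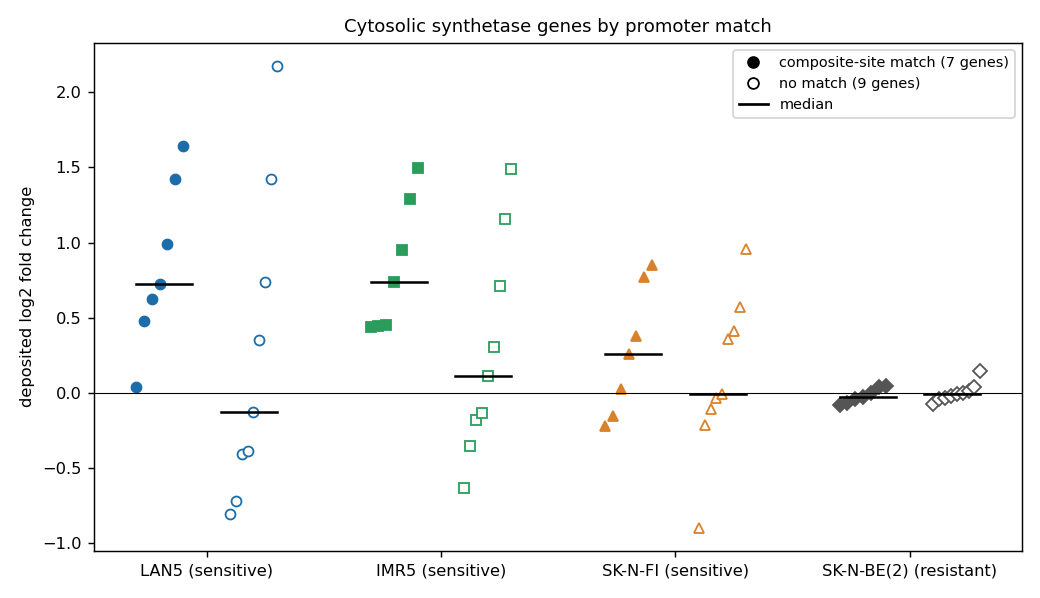
Log2 fold change from the authors' deposited tables (y axis) for the 16 cytosolic synthetase genes with a RefSeq promoter window, by line (x axis). Filled symbols are the 7 genes with a composite-site match, open symbols the 9 without, and bars are medians. In LAN5 and IMR5 the genes with a match all lie above 0, whereas those without spread on both sides of it. In SK-N-FI both kinds spread on both sides of 0.

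Of the 16 mitochondrial genes, more fell than rose in each sensitive line. In LAN5, 0 rose and 11 fell in the authors' deposited table, in IMR5 1 rose and 6 fell, and in SK-N-FI 1 rose and 8 fell. The shares given above for each line are the background of these counts, and the 6 that fell in IMR5 are near the 35.7% of genes averaging at least 100 that fell there. Median log2 fold changes were -0.46 in LAN5, -0.19 in IMR5 cells and -0.26 in SK-N-FI cells in the authors' deposited tables. CARS2, HARS2, IARS2, LARS2 and TARS2, the mitochondrial enzymes for cysteine, histidine, isoleucine, leucine and threonine, fell in all 3 sensitive lines, where 5.83% of all genes tested, and 10.4% of those with a mean of at least 100, did so. Their log2 fold changes lay between -0.77 (CARS2 in IMR5) and -0.21 (IARS2 in IMR5) in the authors' deposited tables. IARS2 (ENSG00000067704, chr1:220094102-220148041, plus strand) had -0.64 ± 0.065 in LAN5, -0.21 ± 0.059 in IMR5 cells, -0.22 ± 0.083 in SK-N-FI cells and 0.10 ± 0.041 in SK-N-BE(2), the last not called in the authors' deposited tables. CARS2 had -0.57 ± 0.095 in LAN5, -0.77 ± 0.11 in IMR5 cells, -0.29 ± 0.11 in SK-N-FI cells and -0.085 ± 0.073 in SK-N-BE(2) in the authors' deposited tables, and was the lowest mitochondrial value in IMR5. LARS2 had -0.60 ± 0.085 in LAN5, -0.42 ± 0.088 in IMR5 cells, -0.71 ± 0.18 in SK-N-FI cells and 0.036 ± 0.078 in SK-N-BE(2) in the authors' deposited tables. TARS2 had -0.55 ± 0.091 in LAN5, -0.42 ± 0.084 in IMR5 cells, -0.52 ± 0.12 in SK-N-FI cells and 0.021 ± 0.062 in SK-N-BE(2) in the authors' deposited tables. With the prior removed, the values of these 4 genes were lower in each sensitive line than in SK-N-BE(2). Single lines were not tested against SK-N-BE(2). For CARS2 the prior-removed 95% interval of SK-N-FI, -0.52 to -0.067, overlapped that of SK-N-BE(2), -0.31 to 0.080, so their order is not settled. At an adjusted p threshold of 0.01 the shared fall was kept by 2 genes, LARS2 and TARS2, and with a minimum absolute log2 fold change of 0.5 by 0. Centring on the median left out HARS2, and adjustment over every gene left out CARS2.

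**Figure D3:**
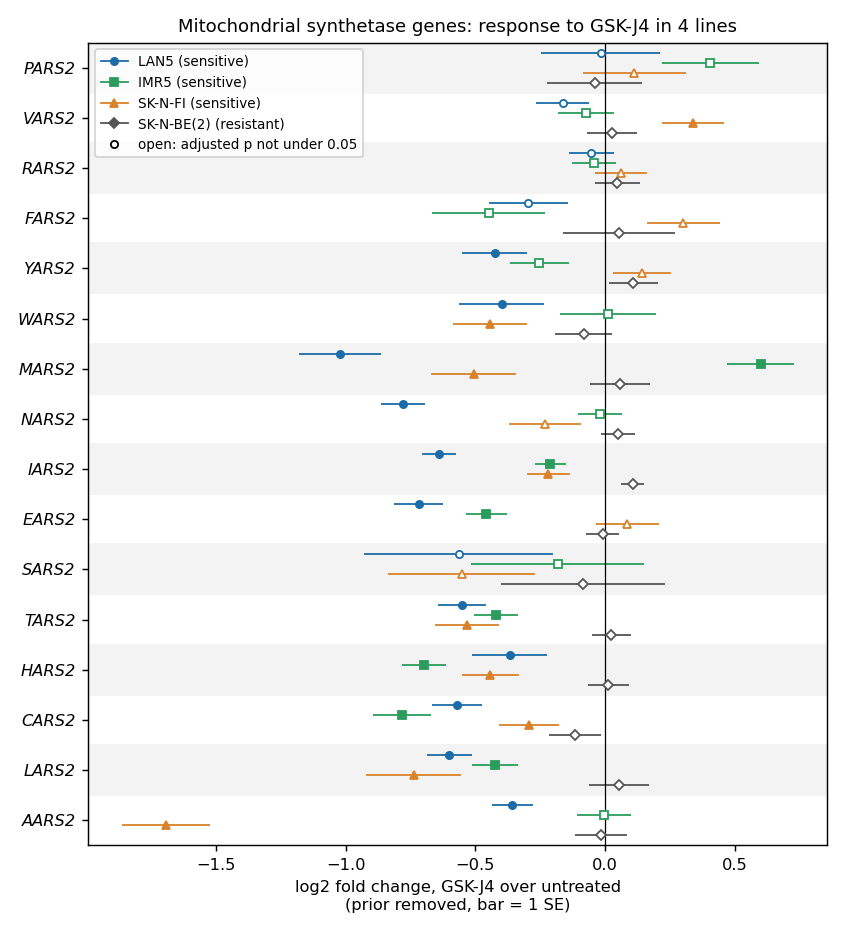
Prior-removed log2 fold change of GSK-J4 over untreated cells (x axis) for the 16 mitochondrial synthetase genes (rows). Each symbol is 1 line, bars are 1 SE, and open symbols had an adjusted p of 0.05 or more. Filled symbols of the sensitive lines lie left of 0 except MARS2 in IMR5 and VARS2 in SK-N-FI, and AARS2 in SK-N-FI lies farthest left.

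Single mitochondrial genes stood apart in 1 line each. AARS2, the mitochondrial alanine enzyme (ENSG00000124608, chr6:44299654-44313326, minus strand), fell in SK-N-FI with a log2 fold change of -1.63 ± 0.16, a fold of 0.323, against -0.36 ± 0.079 in LAN5, -0.0051 ± 0.10 in IMR5 cells and -0.013 ± 0.073 in SK-N-BE(2) in the authors' deposited tables. Its adjusted p in SK-N-FI was 9.47e-22, and no other member in any line had a value as low. MARS2, the mitochondrial methionine enzyme (ENSG00000247626, chr2:197705369-197708387, plus strand), had -1.0 ± 0.15 in LAN5, 0.59 ± 0.13 in IMR5 cells, -0.49 ± 0.16 in SK-N-FI cells and 0.038 ± 0.078 in SK-N-BE(2) in the authors' deposited tables. It is the only mitochondrial member called in opposite directions in different lines, with means of 192 to 301 normalized counts. VARS2, the mitochondrial valine enzyme, rose in SK-N-FI with 0.33 ± 0.12, against -0.16 ± 0.10 in LAN5, -0.073 ± 0.11 in IMR5 cells and 0.019 ± 0.072 in SK-N-BE(2) in the authors' deposited tables, and 22.0% of its exon bases are shared with GTF2H4 on the same strand. EARS2, the mitochondrial glutamate enzyme, had -0.71 ± 0.094 in LAN5, -0.45 ± 0.078 in IMR5 cells, 0.084 ± 0.12 in SK-N-FI cells and -0.0078 ± 0.056 in SK-N-BE(2) in the authors' deposited tables. EARS2, WARS2 and AARS2 fell in 2 sensitive lines each, and NARS2 and YARS2 fell in LAN5 only by this threshold. FARS2, PARS2, RARS2 and SARS2 were not called in any line. PARS2, the proline enzyme, had the highest mitochondrial value in LAN5, -0.016 ± 0.22, and stood at 0.39 ± 0.18 in IMR5 cells, 0.11 ± 0.19 in SK-N-FI cells and -0.018 ± 0.082 in SK-N-BE(2) in the authors' deposited tables. SARS2 had means of only 29.1 to 42.5, SEs of 0.26 to 0.33 in the sensitive lines, and shares 46.2% of its exon bases with another gene of its strand, so a change of moderate size was not detectable for it.

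HARS and HARS2, the cytosolic and mitochondrial histidine enzymes, are neighbours that are read in opposite directions, with RefSeq starts 85 bases apart. The stretch between those starts on the plus strand, with the base of each start in capitals, is shown because both genes share it. HARS is read leftwards from the T and HARS2 rightwards from the G.
HARS and HARS2, chr5:140691370-140691455, plus strand: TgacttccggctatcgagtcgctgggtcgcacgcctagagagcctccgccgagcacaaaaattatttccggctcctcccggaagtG
In LAN5, HARS rose with a log2 fold change of 0.35 ± 0.094 and HARS2 fell with -0.36 ± 0.14 in the authors' deposited table. In IMR5 and SK-N-FI, HARS2 fell with -0.69 ± 0.085 and -0.43 ± 0.11, whereas HARS had -0.18 ± 0.080 and -0.10 ± 0.081 and was not called in the authors' deposited tables. In SK-N-BE(2) they stood at 0.0094 ± 0.059 for HARS and 0.010 ± 0.064 for HARS2 in the authors' deposited table. Their exons share 437 bases on opposite strands, 5.56% of HARS and 11.7% of HARS2, and whether reads were counted by strand is not given in the sources used here, so a part of the reads could be assigned to either gene.

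Set against its mitochondrial counterpart, the cytosolic gene of an amino acid mostly had the higher log2 fold change. There were 17 such pairs, in which EPRS enters with EARS2 and with PARS2, and FARS2 with both FARSA and FARSB. The cytosolic gene was above its partner in 13 pairs in LAN5, 15 in IMR5 cells, 11 in SK-N-FI cells and 7 in SK-N-BE(2) in the authors' deposited tables. A cytosolic gene that rose stood beside a mitochondrial gene that fell in 10 pairs in LAN5, 5 in IMR5 cells, 3 in SK-N-FI cells and 0 in SK-N-BE(2). The reverse was seen in 1 pair, VARS and VARS2 in SK-N-FI, and in 0 pairs in the other lines. These pair counts use the same calls as the counts for each group above. No share among other pairs of genes was computed to set beside them. The widest gaps in log2 fold change were 2.57 for WARS and WARS2 in LAN5, 2.06 for CARS and CARS2 in IMR5 and 1.89 for AARS and AARS2 in SK-N-FI, from the authors' deposited tables. These gaps are descriptions without a test.

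**Figure D4:**
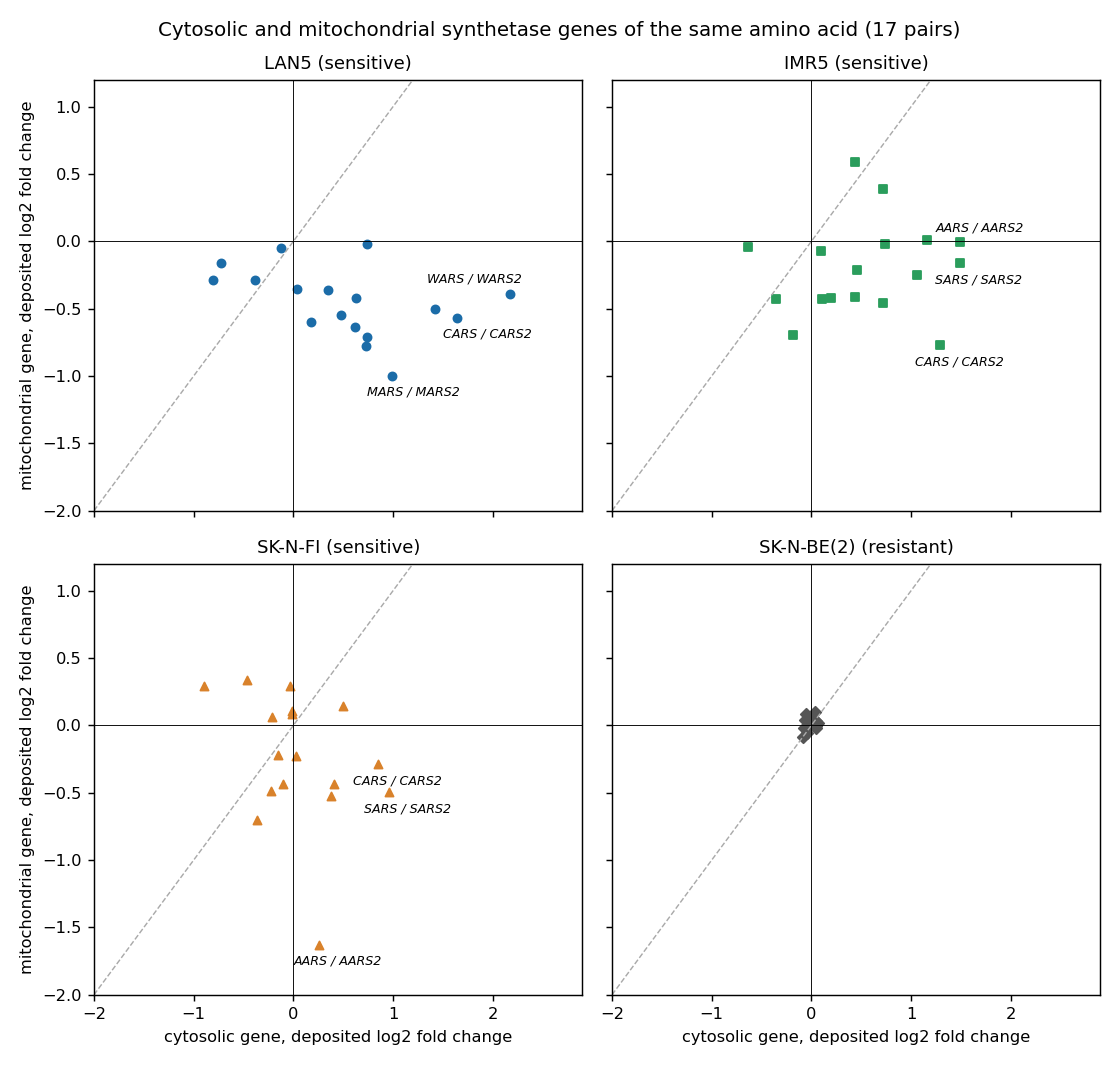
Log2 fold change from the authors' deposited tables of the cytosolic gene (x axis) and of the mitochondrial gene (y axis) for 17 pairs of the same amino acid, 1 panel for each line. The dashed line marks equal changes, and the 3 pairs with the widest gap are named in the sensitive lines. Points lie below the dashed line in 13, 15 and 11 pairs in LAN5, IMR5 and SK-N-FI, and gather at 0 in SK-N-BE(2).

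The resistant line, SK-N-BE(2), had 0 of 36 synthetase genes that rose or fell by the DESeq2 Wald test of the authors' deposited table, where 2.48% of 13407 genes tested were called, 1.62% higher and 0.858% lower. With so small a share, 0 of 36 is near it and is not particular to these genes. At an unadjusted p under 0.05 there were 2 members, QARS and IARS2, both above 0, with adjusted p of 0.291 and 0.259, and the share over all 29328 genes with a p-value was 4.96%, so 2 of 36 is near it. The cytosolic values ran from -0.080 (CARS) to 0.14 (QARS) and the mitochondrial ones from -0.085 (CARS2) to 0.10 (IARS2) in the authors' deposited table. After removal of the prior, the 95% intervals of the 20 cytosolic genes lay within -0.23 and 0.32, and those of the 13 mitochondrial genes with a mean of at least 134 within -0.31 and 0.29. For FARS2, PARS2 and SARS2 the data set wider limits, from -0.71 to 0.54 at most.

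The difference between the mean of the 3 sensitive lines and SK-N-BE(2) was tested on prior-removed log2 fold changes with a two-sided Wald test over 8982 genes averaging at least 100 in each of the 4 tables. This kept all 20 cytosolic and 13 mitochondrial members, and FARS2, PARS2 and SARS2 were too weak. Against SK-N-BE(2), the mean response of the sensitive lines was higher for 11 and lower for 4 cytosolic genes. For the mitochondrial genes it was higher for 0 and lower for 10, beside 26.4% higher and 32.6% lower among all genes tested. SARS had the largest difference, 1.38 ± 0.062 (SE), with an adjusted p of 4.83e-108. It was followed by CARS with 1.36 ± 0.087 and WARS with 1.30 ± 0.074. On the lower side stood AARS2 with -0.67 ± 0.12, LARS2 with -0.64 ± 0.14 and TARS2 with -0.53 ± 0.095, with adjusted p of 2.65e-07, 1.15e-05 and 1.72e-07. The AARS2 value rests mainly on SK-N-FI, whose prior-removed log2 fold change was -1.69, beside -0.36 in LAN5 and -0.0052 in IMR5.

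The response of SK-N-FI, without MYCN amplification, was set against the mean of LAN5 and IMR5 by the same test. It was higher for 4 and lower for 12 of the 20 cytosolic genes, and higher for 4 and lower for 1 of the 13 mitochondrial genes, beside 28.4% and 18.9% of all genes tested. The mitochondrial count that was higher is near that share. KARS differed by 0.85 ± 0.10, DARS by 0.74 ± 0.12, EARS2 by 0.67 ± 0.14 and QARS by 0.58 ± 0.11, all higher in SK-N-FI. AARS2 differed by -1.51 ± 0.18, WARS by -1.26 ± 0.12, MARS by -0.94 ± 0.099 and LARS by -0.56 ± 0.11. The adjusted p of these 8 differences ranged up to 7.02e-06. For DARS and QARS the difference rests mainly on LAN5. Prior-removed values in LAN5, IMR5 and SK-N-FI were -0.76, 0.17 and 0.45 for DARS. For QARS they were -0.73, 0.31 and 0.37. WARS, CARS and SARS, all lower in SK-N-FI by this test, nevertheless rose in that line.

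LAN5 and IMR5, both MYCN-amplified and sensitive, also differed from each other. The response was higher in LAN5 for 6 and lower for 7 of the 20 cytosolic genes, and higher for 0 and lower for 4 of the 13 mitochondrial genes, beside 27.3% and 33.7% of all genes tested. The cytosolic counts in both directions and the mitochondrial count that was lower are near these shares. WARS was higher in LAN5 by 1.02 ± 0.10, MARS by 0.55 ± 0.098 and HARS by 0.54 ± 0.12. MARS2 differed by -1.62 ± 0.20, AARS by -1.47 ± 0.10, QARS by -1.03 ± 0.11 and DARS by -0.93 ± 0.10. AARS rose in IMR5 and was close to 0 in LAN5, and the difference had an adjusted p of 1.23e-44. As a description across genes, the Pearson correlation of the log2 fold changes in the authors' deposited tables over the 20 cytosolic genes was 0.68 for LAN5 and IMR5, 0.50 for LAN5 and SK-N-FI and 0.58 for IMR5 and SK-N-FI. Over the 16 mitochondrial genes it was 0.0019, 0.28 and -0.045.

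**Figure D5:**
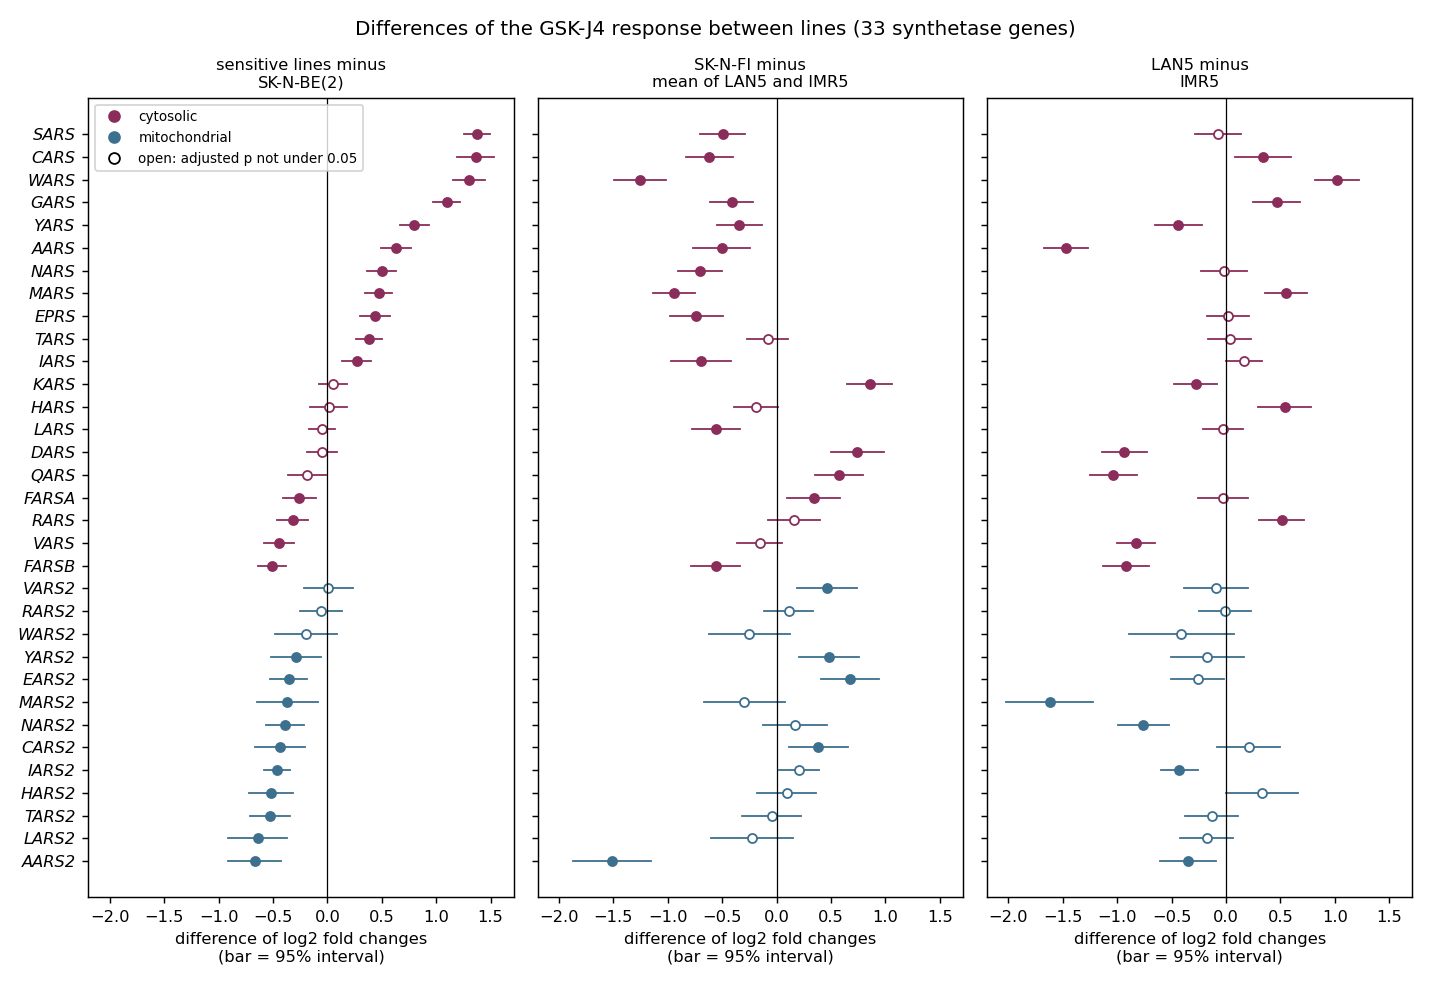
Difference of prior-removed log2 fold changes between lines (x axis) for the 33 synthetase genes tested (rows), for the 3 comparisons named above the panels. Points are differences, bars 95% intervals, and open points had an adjusted p of 0.05 or more. In the first panel cytosolic genes reach 1.38 and the mitochondrial ones go down to -0.67.

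The median level of the cytosolic synthetase mRNAs was above that of the mitochondrial ones in every line, but the groups overlapped. Per kilobase of merged exon, the median of the mean normalized counts, an average over treated and untreated libraries, was 469 for the cytosolic and 89.7 for the mitochondrial genes in LAN5, 819 and 162 in IMR5, 659 and 78.4 in SK-N-FI, and 743 and 102 in SK-N-BE(2). IARS2 had the highest level and SARS2 the lowest among the mitochondrial genes in each line. At 477, 1159, 718 and 913 in LAN5, IMR5, SK-N-FI and SK-N-BE(2), IARS2 lay above the cytosolic median of each line. HARS in LAN5, with 88.2, and CARS in SK-N-BE(2), with 99.5, lay below the mitochondrial median of their line. Among the cytosolic genes SARS was highest in LAN5, EPRS in IMR5 and SK-N-BE(2), and NARS in SK-N-FI. The tables were normalized separately, so levels are read within a line.

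Genes that work beside the synthetases moved less evenly. Of 16 such genes, 1 rose and 8 fell in LAN5, 6 rose and 6 fell in IMR5, 1 rose and 4 fell in SK-N-FI, and 0 were called in SK-N-BE(2) in the authors' deposited tables. Both counts in IMR5 and the count that fell in SK-N-FI are near the shares given above for genes averaging at least 100. XPOT, the nuclear export receptor for tRNA, rose in each sensitive line, by a log2 fold change of 0.34 ± 0.053 in LAN5, 0.53 ± 0.096 in IMR5 cells and 0.52 ± 0.098 in SK-N-FI cells in the authors' deposited tables. ELAC2, which trims the 3′ end of precursor tRNAs, TRNT1, which adds the CCA end, and GATC, a subunit of the mitochondrial glutaminyl-tRNA amidotransferase, fell in all 3. GATC shares exon bases with SRSF9 on the other strand. ELAC2 had the largest of these changes, -1.22 ± 0.087 in LAN5, -0.60 ± 0.075 in IMR5 cells and -0.44 ± 0.11 in SK-N-FI cells in the authors' deposited tables. Among genes averaging at least 100 in each sensitive line, 7.6% rose in all 3 and 10.4% fell in all 3. With XPOT, 1 of 16 rose in all 3, which is near that share. The scaffolds of the complex were not raised as a group: AIMP1 rose in IMR5 only by this threshold, AIMP2 fell in LAN5, and EEF1E1 was not called in any line.

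ATF4 itself rose in LAN5, IMR5 and SK-N-FI, with log2 fold changes of 0.94 ± 0.085, 0.71 ± 0.10 and 1.44 ± 0.14, and was at -0.00085 ± 0.042 in SK-N-BE(2) in the authors' deposited tables. Its known targets DDIT3, ASNS, TRIB3, CHAC1 and SESN2 rose in the same 3 lines and none was called in SK-N-BE(2). The prior-removed rise of ATF4 was larger in SK-N-FI than in LAN5 and IMR5 by 0.65 ± 0.15 with an adjusted p of 0.000133, whereas 4 of those targets went the other way by the same test, DDIT3 by -0.93 ± 0.26, ASNS by -1.29 ± 0.15, TRIB3 by -2.33 ± 0.19 and SESN2 by -1.14 ± 0.19. About 27.2% of the exon bases of DDIT3 overlap MARS on the other strand. The part of ATF4 in the synthetase changes was not tested. MYCN fell in LAN5 with -1.90 ± 0.049 and in IMR5 with -1.07 ± 0.071, and was not called in SK-N-FI or SK-N-BE(2), with -0.30 ± 0.20 and 0.11 ± 0.039 in the authors' deposited tables.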

How the data were processed

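Polyadenylated RNA from 24 libraries in 8 groups of 3 was sequenced. Per the submitters' processing notes, FastQC, STAR and DESeq2 were used with hg38, and no versions are given. For the annotation and for strand in counting, nothing was given in the sources used here. Each line has 1 table of the authors' comparison. Per the file headers, the signal column is a mean count normalized by the authors within that table. Fold changes and standard errors are the authors' log2 values. The deposited Wald statistic is a score. Each p-value, raw or adjusted, is as the authors deposited it and was not tested again. The depth of a library is unknown, and nothing that needs it was computed.

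The table used for SK-N-FI is named close to, but not as, that line, and was assigned by likeness and elimination. The sign was read from BBC3, which the study is known to report as induced, in the sensitive lines, and from MT2A and SLC30A1 in SK-N-BE(2). Members and lists (complex, class, pairs, partners, stress genes, markers and motifs) were chosen with earlier results of these data known. Genes named with values are the cytosolic ones called alike in 3 sensitive lines, those called in opposite directions, the extremes of each line and the 3 largest differences of each sign. Those in the other sentences were named for their counts.

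The standard errors reach a ceiling, the mark of a normal prior on fold changes: LAN5 0.539, IMR5 0.490, SK-N-FI 0.428 and SK-N-BE(2) 0.0828. The prior was removed by solving the equations of the shrunken fold change and its error, with precision 1 over the square of 2 times that ceiling. Of the pair of solutions, the smaller error was taken above the mean where the running median of the error over 501 genes peaks. In SK-N-BE(2) that mean is 134, and the deposited score differed from fold change over error by more than 0.0001 for 19488 genes (median 0.000382), so the removal may not hold there, which touches every difference from that line. Differences between lines used a two-sided Wald test with Benjamini-Hochberg adjustment over 8982 genes. The scripts were tested on simulated data made with the same prior equations. That could not check the form of the prior, its ceiling or the choice of solution. Coordinates and exon overlaps are from GENCODE release 29 (GRCh38), and promoters from RefSeq, GRCh38.p14. Python 3.11.15, numpy 2.4.6, pandas 2.3.3, scipy 1.17.1 and matplotlib 3.10.9 were used. Other thresholds, adjustments, scalings, filters on the mean and prior settings were tried as alternatives.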

Additional observations from a re-analysis of the deposited data

Results flagged for a closer look

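The differences of prior-removed log2 fold changes between lines that passed the test and were largest of their sign are listed here, with further ones of genes called in opposite directions. They are listed because the response differed between lines by a test of the difference itself. Left out of the list, though they passed, are KARS between LAN5 and IMR5 (-0.28), and MARS (0.47) and MARS2 (-0.37) between the sensitive lines and SK-N-BE(2). Between the mean of the sensitive lines and SK-N-BE(2), SARS differed by 1.38, CARS by 1.36 and WARS by 1.30, and AARS2 by -0.67, LARS2 by -0.64 and TARS2 by -0.53. Between SK-N-FI and the mean of LAN5 and IMR5, KARS differed by 0.85, DARS by 0.74, EARS2 by 0.67 and QARS by 0.58, and AARS2 by -1.51, WARS by -1.26, MARS by -0.94 and LARS by -0.56. As given above, those of DARS and QARS rest mainly on LAN5. Between LAN5 and IMR5, WARS differed by 1.02, MARS by 0.55 and HARS by 0.54, and MARS2 by -1.62, AARS by -1.47, QARS by -1.03 and DARS by -0.93. Single libraries were not at hand, so no value could be compared between libraries of a group.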

How the results depend on the processing

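No paired analysis was possible because the deposited tables hold no values of single libraries, and leaving out single libraries, other normalizations and a count model were not run for the same reason. Requiring an absolute log2 fold change of at least 0.5 left 7 lower mitochondrial genes in LAN5 in place of 11. With it, IMR5 kept 12 calls in place of 23, with 8 higher and 1 lower cytosolic genes in place of 14 and 2, and 2 lower mitochondrial genes in place of 6. SK-N-FI had 9 calls in place of 22, with 5 higher and 1 lower cytosolic genes in place of 9 and 4, and 0 higher and 3 lower mitochondrial genes in place of 1 and 8. Higher mitochondrial genes numbered 2 in place of 1 in IMR5 and in SK-N-FI at a threshold of 0.1, 0 in SK-N-FI at 0.01, and 2 in IMR5 when p-values were adjusted over genes averaging at least 10. The other counts for single lines and for differences between lines stayed within 1.5 times, and SK-N-BE(2) stayed at 0 calls. No called value changed sign under any alternative run. Within single lines only centring on the median could change a sign, because the other settings use the same fold changes. The same settings were applied, after seeing the data, to the counts over the 3 sensitive lines. The 5 mitochondrial genes that fell in all 3 numbered 2 at a threshold of 0.01 and 0 with the minimum of 0.5, the 5 cytosolic genes called in opposite directions 3 and 0, and the 6 that rose in all 3 were 6 and 4. Centring on the median ended the calls of HARS2 (-0.28) and WARS2 (-0.31) in LAN5, so HARS2 then fell in 2 sensitive lines. Of the differences between lines, it ended those of YARS2 (sensitive lines minus SK-N-BE(2), -0.24) and of FARSA (0.26) and CARS2 (0.30), and called HARS (-0.27) and VARS (-0.24), these 4 for SK-N-FI minus LAN5 and IMR5, and IARS (0.22) and HARS2 (0.39) for LAN5 minus IMR5. Adjustment over every gene ended the calls of DARS (0.17) in IMR5 and CARS2 (-0.29) in SK-N-FI.

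Limits are the unknown depth, weak genes (SARS2), and the reading of the sign and of the SK-N-FI table.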
